A study of Homo sapiens with 4 samples.

Results

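The genes described here are 46 collagens, laminins, other matrix proteins and the enzymes that modify and cross-link collagen, listed by gene family and role. No measured value enters the rule, but the list was drawn up with earlier results of these data known. Their transcripts were counted by RNA sequencing in UMUC3 and SW780, both lines from human bladder cancer. For each line a library of cells with SCD1 knocked down by lentivirus (UMUC3 shSCD1 and SW780 shSCD1) was set beside a library labelled shNT with the genotype WT (UMUC3 shNT and SW780 shNT). SCD1 is an enzyme of the endoplasmic reticulum that desaturates stearate to oleate. UMUC3 cells were grown in MEM and SW780 cells in DMEM, both with serum, so the line and its medium cannot be told apart. How many hairpins, clones or cultures stand behind a library is not stated in the labels. Each of the 4 groups held 1 library, so no value below has a replicate check, and a gene called higher or lower is so between these libraries only.

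Of the 46 genes, 44 of 30148 entries were found in the UMUC3 table (34 by name and 10 by Ensembl identifier), and all 46 of 17752 entries in the SW780 table (36 by name and 10 by identifier). LAMA4 and LOXL4 were not analysed here in UMUC3. At least 1 CPM (reads per 1000000 reads of the table) in either library was reached by 34 genes in UMUC3, 36 in SW780 and 31 in both. A gene that reaches this level through its higher library alone is counted by that filter, so counts over these genes are descriptions only.

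The extracellular matrix is a secreted scaffold. Fibrillar collagens form the fibres of connective tissue, while type IV collagen and laminin each polymerise into a sheet that nidogen and perlecan join into the basement membrane under an epithelium such as the urothelium. Collagen chains are hydroxylated on proline and lysine in the endoplasmic reticulum, fold into triple helices, are secreted, and are then cross-linked by lysyl oxidases. Matricellular proteins such as thrombospondin, tenascin and SPARC bind this scaffold and the cell surface and are known for their part in adhesion.

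The tables name their libraries only first and second. Each table is named for shSCD1 and its fold change is second over first, so the second library was taken to be shSCD1 and the first shNT; every direction within a line would turn round if its columns stood in the other order. SCD, the targeted gene, had 59.6 CPM in UMUC3 shSCD1 and 264 CPM in UMUC3 shNT, and 92.1 CPM in SW780 shSCD1 and 592 CPM in SW780 shNT. Table totals were 32540576 reads (UMUC3 shSCD1), 22818368 (UMUC3 shNT), 25549737 (SW780 shSCD1) and 34087871 (SW780 shNT). A count of 0 allows up to 3 reads, which is 0.0922, 0.131, 0.117 and 0.088 CPM in the same order.

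Of 20 epithelial and urothelial markers, 17 had at least 1 CPM in SW780 and 6 in UMUC3. Their summed level was 11955 CPM in SW780 shSCD1 and 13952 CPM in SW780 shNT, against 264 CPM in UMUC3 shSCD1 and 536 CPM in UMUC3 shNT. The 6 in UMUC3 were KRT7, KRT8, KRT18, GATA3, FOXA1 and PPARG, with KRT8 and KRT18 the strongest. PPARG had 10.1 CPM in UMUC3 shSCD1 and 6.14 CPM in UMUC3 shNT, and KRT7, GATA3 and FOXA1 had at most 4.43 CPM. KRT17, KRT19 and UPK1B had 0 reads in both UMUC3 libraries, and EPCAM and CDH1 were not analysed here in UMUC3. Of 12 fibroblast markers, 4 had at least 1 CPM in UMUC3 (summed level 16.4 CPM in shSCD1 and 53.6 CPM in shNT) and 3 in SW780 (63 CPM in shSCD1 and 48.3 CPM in shNT). PDGFRB, DCN and THY1 had 0 reads in both SW780 libraries, while FAP had 37.1 CPM in shSCD1 and 9.39 CPM in shNT and S100A4 had 25.4 CPM in shSCD1 and 37.4 CPM in shNT. Smooth muscle and pericyte markers summed to 8.48 CPM in shSCD1 and 7.84 CPM in shNT of UMUC3, and to 153 CPM in shSCD1 and 64.2 CPM in shNT of SW780, most of it TAGLN and ACTA2. Endothelial markers summed to at most 5.71 CPM in any library. Blood cell markers summed to 48 CPM in shSCD1 and 67.4 CPM in shNT of UMUC3, and to 14.6 CPM in shSCD1 and 20 CPM in shNT of SW780.

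Differences within a line are given as log2((shSCD1 CPM + 1)/(shNT CPM + 1)), which makes the ratios of weak genes smaller. A gene passes the size rule when its log2 ratio is 1 or more in size and 1 of the 2 libraries holds at least 1 CPM. A fold is the plain CPM ratio, and its 95% interval (exact Clopper-Pearson) covers counting error only. In bulk libraries, fewer cells that make a transcript and less of it per cell cannot be told apart.

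Sequence just before the start of the genes that the results turn on is shown first. TGFBI, TNC and COL5A1 were lower by the size rule in shSCD1 of both lines. THBS1 was lower in UMUC3 and higher in SW780. COL4A1 and COL4A2 face away from each other on chromosome 13 with 126 bases between their RefSeq starts. All stretches are from RefSeq (GRCh38.p14) and run 5′ to 3′ on the gene's strand (COL4A2's strand for the shared stretch). Those of TGFBI, TNC, COL5A1 and THBS1 end before the most upstream start that RefSeq or GENCODE 29 gives. The shared stretch lies between the GENCODE 29 start of COL4A1 and the RefSeq start of COL4A2, and so inside the longer COL4A2 gene of GENCODE 29. Capitals mark a match, on either strand, of the GC box GGGCGG. They also mark the CCAAT box and, in THBS1 alone, 1 match of GGAATG. In THBS1 the CCAAT match stands directly beside a GC box without overlap.
TGFBI (chr5:136028738-136028894, plus strand): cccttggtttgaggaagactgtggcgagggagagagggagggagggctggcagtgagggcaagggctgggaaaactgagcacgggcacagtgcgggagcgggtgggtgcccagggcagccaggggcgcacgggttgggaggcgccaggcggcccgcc
TNC (chr9:115118258-115118407, minus strand): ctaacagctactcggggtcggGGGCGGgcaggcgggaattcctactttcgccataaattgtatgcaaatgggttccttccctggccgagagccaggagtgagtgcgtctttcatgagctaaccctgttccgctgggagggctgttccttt
COL5A1 (chr9:134641553-134641773, plus strand): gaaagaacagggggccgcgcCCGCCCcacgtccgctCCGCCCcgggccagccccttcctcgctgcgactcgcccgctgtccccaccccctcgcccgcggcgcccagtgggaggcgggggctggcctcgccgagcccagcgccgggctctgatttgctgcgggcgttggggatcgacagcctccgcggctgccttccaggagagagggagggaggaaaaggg
THBS1 (chr15:39580829-39581078, plus strand): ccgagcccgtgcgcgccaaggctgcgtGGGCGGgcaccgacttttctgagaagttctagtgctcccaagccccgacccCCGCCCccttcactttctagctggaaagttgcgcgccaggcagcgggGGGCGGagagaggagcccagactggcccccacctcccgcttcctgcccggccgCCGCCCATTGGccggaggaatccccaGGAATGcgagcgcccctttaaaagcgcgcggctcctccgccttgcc
COL4A1 and COL4A2 (chr13:110307234-110307283, plus strand): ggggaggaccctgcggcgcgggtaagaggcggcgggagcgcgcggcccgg

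RefSeq promoters were matched for 37 of the 46 genes. In the 250 bases before the start, GGGCGG stood on either strand in 26 of these 37 genes and in 42.6% of all 35116 promoters. A gene was counted if any of its promoters held the match, while all promoters were counted singly. A gene with several promoters has more chances of a match, so the shares here are not like for like. CCAAT stood in 13 of 37 and in 32% of all promoters, TATAAA in 7 of 37 and 10.7%, GGAATG in 5 of 37 and 11.9%, and TGANTCA in 2 of 37 and 6.57%. Between the RefSeq starts of COL4A1 and COL4A2 the GC box and the CCAAT box were both found, outside the stretch printed. TGFBI, printed without capitals, is among the 26 genes with GGGCGG, with the match likewise outside the stretch printed. These matches describe letters in a window.

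By sign the matrix genes stood mostly below 0 in UMUC3 and mostly above 0 in SW780. By the size rule genes were only lower in UMUC3, and both higher and lower in SW780. In UMUC3 shSCD1 against UMUC3 shNT, 7 of 34 genes were lower by the size rule (COL5A1, COL13A1, COL17A1, TNC, TGFBI, SPARC and THBS1), against 2.18% of all 14063 genes with at least 1 CPM, and 0 were higher, against 2.47%. By sign alone 26 of the 34 were below 0, against 45.7% of all genes, and 8 were above 0, against 54.3%. The median log2 ratio was −0.48 over the 34 and 0.04 over all genes. The 46 genes together took 0.178% of reads in UMUC3 shSCD1 and 0.298% in UMUC3 shNT.

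In SW780 shSCD1 against SW780 shNT, 4 of 36 genes were higher by the size rule (COL4A1, COL4A2, THBS1 and LOXL2), against 1.48% of all 12880 genes, and 3 were lower (COL5A1, TNC and TGFBI), against 1.06%. By sign 26 of the 36 were above 0, against 48.5% of all genes, and 10 were below 0, against 51.5%. Their median log2 ratio was 0.20, against −0.01 over all genes. Together they took 0.748% of reads in SW780 shSCD1 and 0.613% in SW780 shNT. With all genes of the list that are in the table and no filter on level, the median was −0.34 in UMUC3 and 0.12 in SW780.

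**Figure D1:**
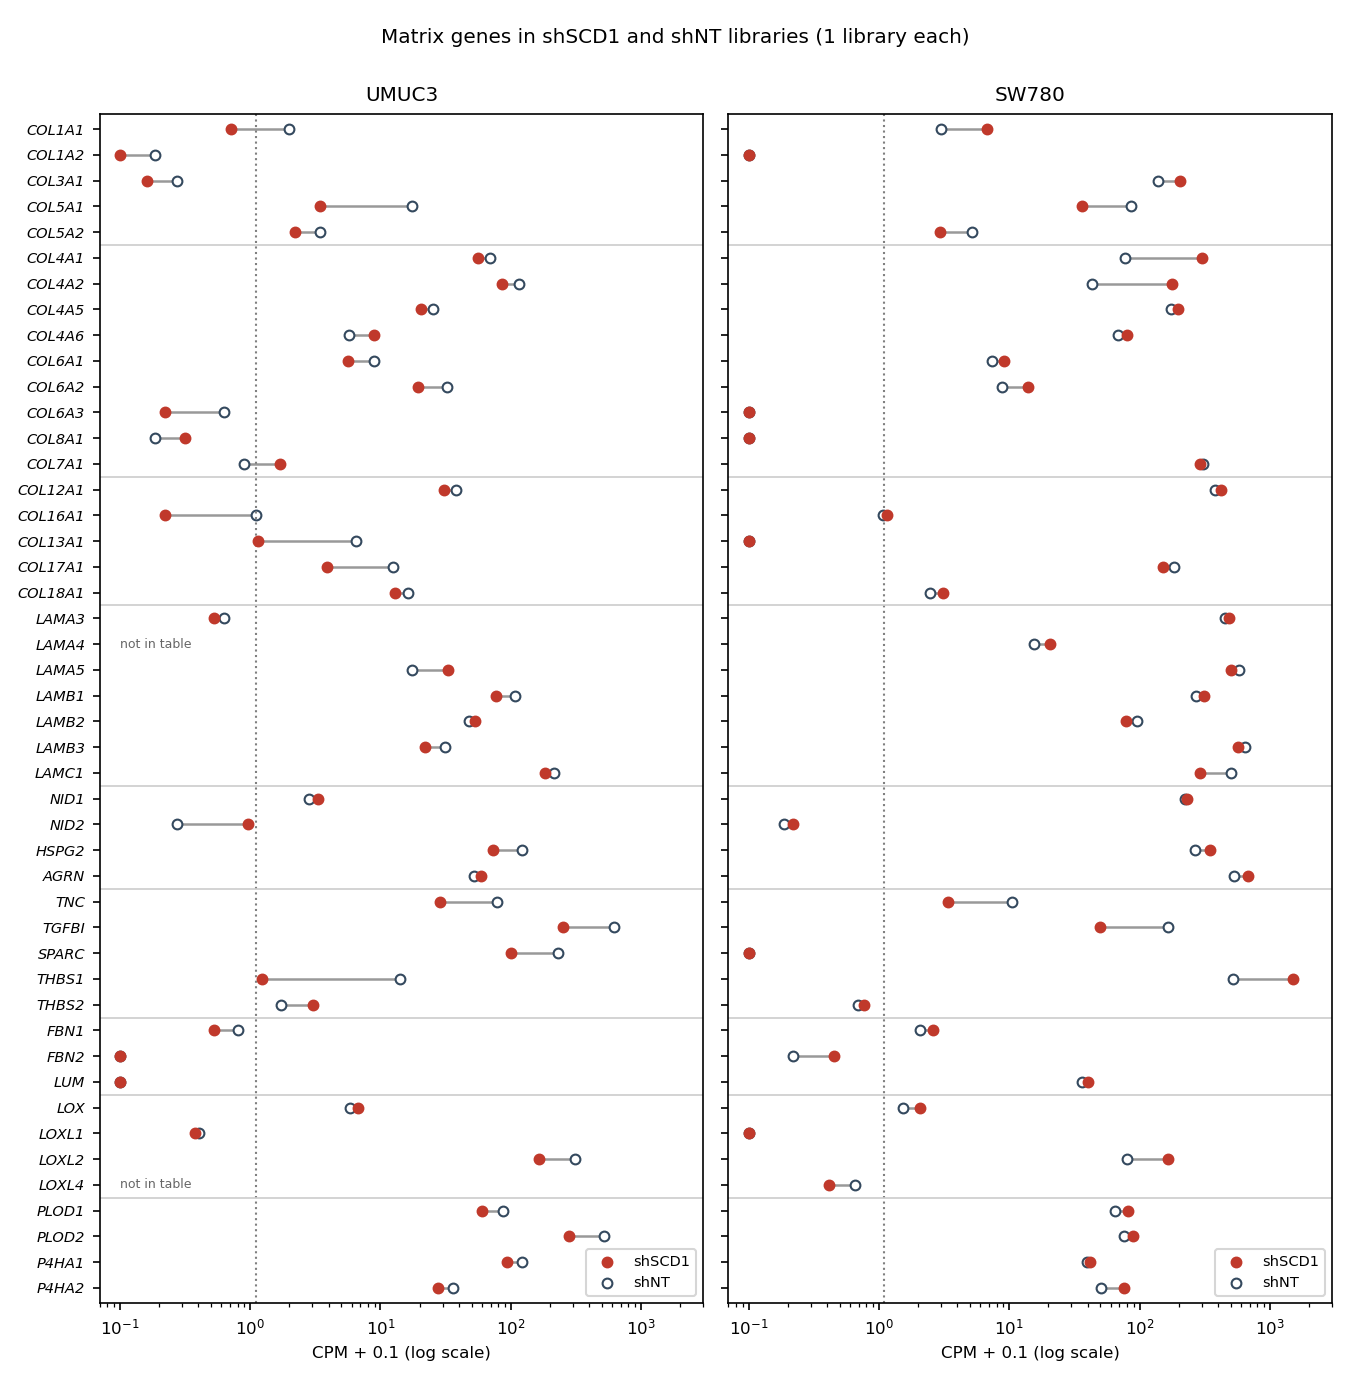
Level of each of the 46 matrix genes, grouped by role, as CPM plus 0.1 on a log axis in UMUC3 (left) and SW780 (right); filled red points are shSCD1 libraries, open points shNT libraries, 1 library each, and the dotted line marks the filter of 1 CPM. Most red points lie left of the open ones in UMUC3, and in SW780 the long lines to the right belong to COL4A1, COL4A2 and THBS1.

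**Figure D2:**
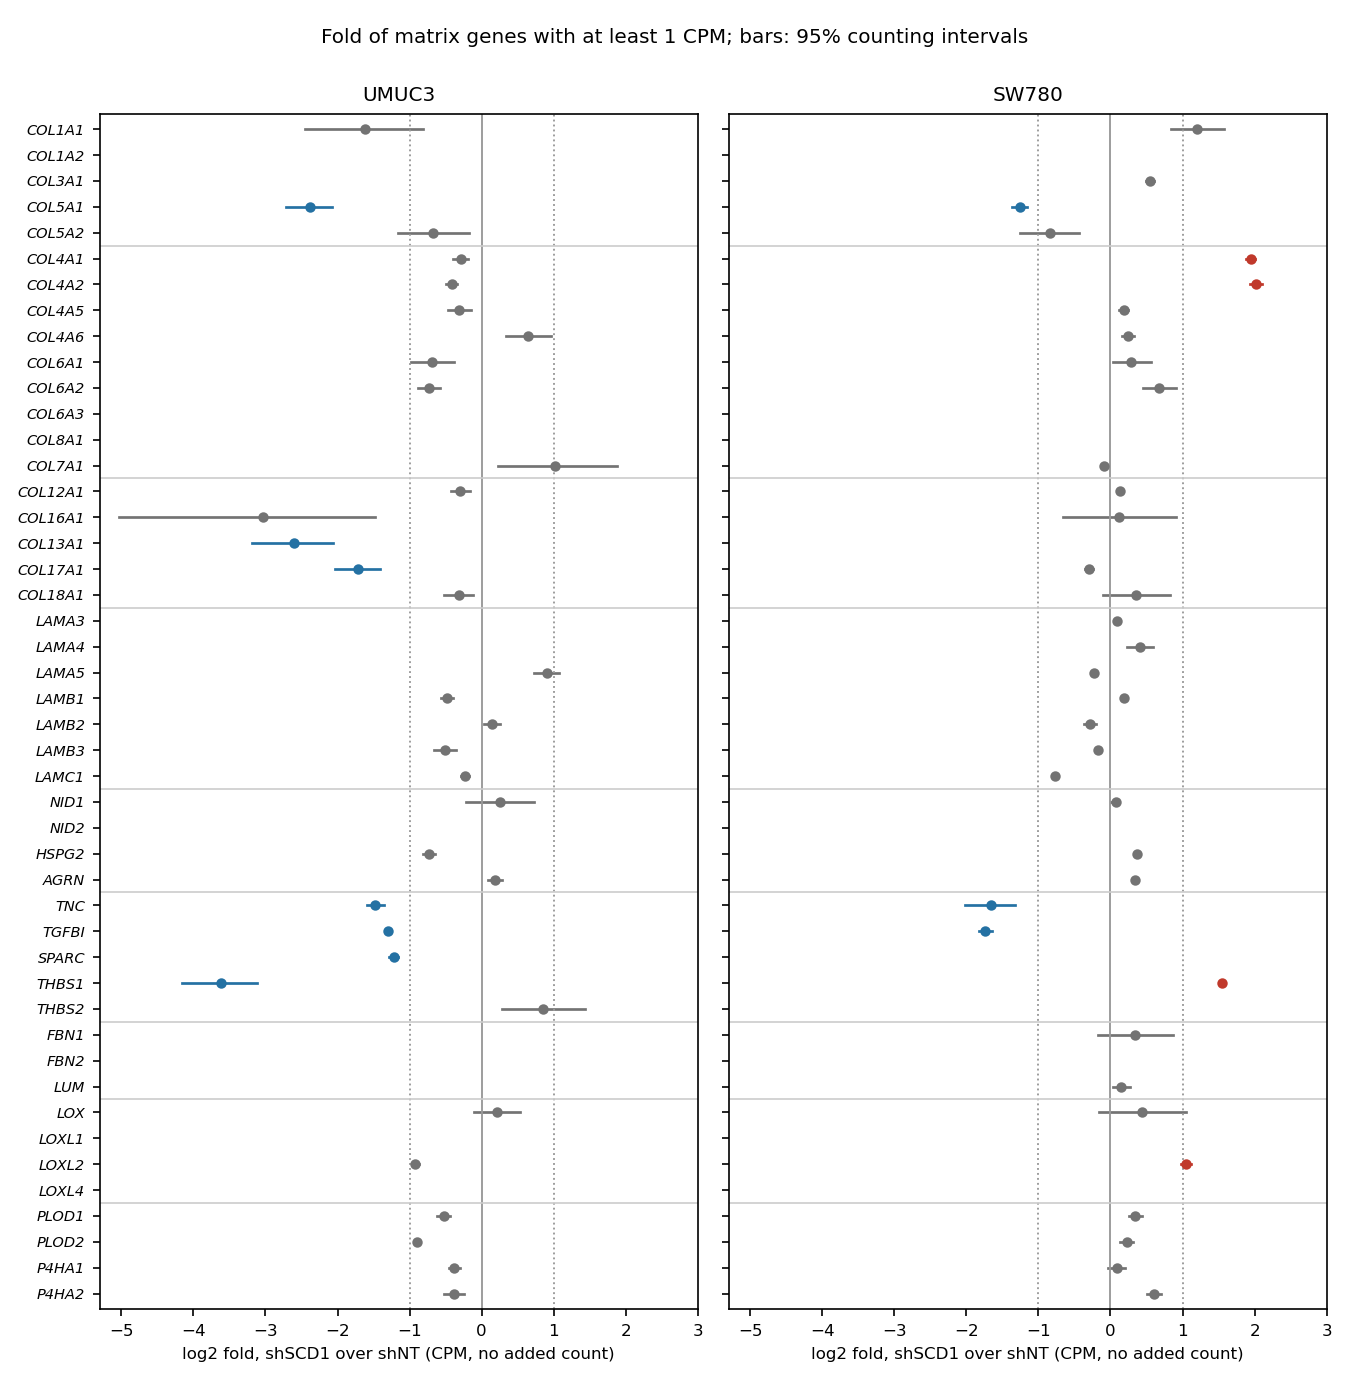
Fold of shSCD1 over shNT on a log2 scale, without an added count, for genes that reach 1 CPM in the line; bars are 95% counting intervals and dotted lines mark a 2-fold difference. Genes past the size rule are blue (lower) or red (higher): 7 blue in UMUC3, and 4 red and 3 blue in SW780. The size rule uses ratios with 1 CPM added, so some grey genes lie beyond the dotted lines. These are COL1A1, COL16A1 and COL7A1 in UMUC3 and COL1A1 in SW780.

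Among the fibrillar collagens, COL5A1 was lower in both lines. COL5A1 encodes a chain of type V collagen, which starts and limits the growth of collagen fibrils, and lies on chromosome 9 from 134641774 to 134844843 (GRCh38, GENCODE 29). It had 3.32 CPM (108 reads) in UMUC3 shSCD1 and 17.4 CPM (396 reads) in UMUC3 shNT, 5.23-fold lower (95% interval 4.22 to 6.53). In SW780 it had 36.2 CPM in shSCD1 and 86.5 CPM in shNT, 2.39-fold lower (2.22 to 2.58). Its partner chain COL5A2 was weak and did not pass the size rule, with 2.09 CPM in shSCD1 and 3.33 CPM in shNT of UMUC3, and 2.86 CPM in shSCD1 and 5.1 CPM in shNT of SW780 (log2 ratios −0.49 and −0.66).

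The major fibrillar collagens were unevenly present. COL3A1, the chain of type III collagen, stood at 203 CPM in SW780 shSCD1 and 139 CPM in SW780 shNT (1.46-fold, 1.41 to 1.52; log2 ratio 0.55), but had 2 reads in UMUC3 shSCD1 and 4 in UMUC3 shNT. COL1A1 and COL1A2 encode the chains of type I collagen, the main protein of connective tissue. COL1A1 had 0.615 CPM in shSCD1 and 1.88 CPM in shNT of UMUC3 (20 and 43 reads), and 6.69 CPM in shSCD1 and 2.9 CPM in shNT of SW780 (171 and 99 reads). Its log2 ratios were −0.84 and 0.98, short of the size rule in both lines. COL1A2 had 0 and 2 reads in shSCD1 and shNT of UMUC3, and 0 reads in both SW780 libraries, so the second chain of type I collagen was at or under the floor in all 4 libraries.

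Type IV collagen had the largest ratios above 0 among the matrix genes of SW780. COL4A1 and COL4A2, whose chains assemble into the basement membrane network as a heterotrimer, lie on chromosome 13, from 110148963 to 110307233 and from 110305812 to 110513209 in GENCODE 29. These spans overlap, because GENCODE 29 starts COL4A2 further upstream than RefSeq does; by the RefSeq starts the genes lie head to head. In SW780 COL4A1 had 300.5 CPM in shSCD1 and 77.9 CPM in shNT, 3.85-fold higher (3.69 to 4.03). COL4A2 had 176 CPM in shSCD1 and 43.4 CPM in shNT, 4.06-fold higher (3.83 to 4.31). The 2 genes differed by nearly the same fold, with counting intervals that overlap. In UMUC3 both were slightly lower and short of the size rule, at 56.1 CPM in shSCD1 and 68.7 CPM in shNT for COL4A1 (log2 ratio −0.29) and 86 CPM in shSCD1 and 115 CPM in shNT for COL4A2 (−0.41).

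The balance between these chains differed between the lines more than between libraries of a line. Per kilobase of exons, COL4A1 stood at 2.23 times COL4A2 in SW780 shSCD1 (counting interval 2.15 to 2.32) and 2.35 times in SW780 shNT (2.21 to 2.51). In UMUC3 it stood at 0.853 times COL4A2 in shSCD1 (0.803 to 0.905) and 0.784 times in shNT (0.736 to 0.835). The lengths used are the union of all annotated exons, 14.7 kb for COL4A1 and 19.3 kb for COL4A2. The size of these ratios therefore depends on the annotation, which the counting intervals do not cover. The lines have separate tables with different gene sets, and the difference between them has no replicates.

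COL4A5 and COL4A6, another head-to-head pair of type IV chains by the RefSeq starts, on chromosome X with 379 bases between their RefSeq starts, did not follow COL4A1 and COL4A2 in SW780. COL4A5 had 197 CPM in SW780 shSCD1 and 174 CPM in SW780 shNT (1.14-fold, 1.09 to 1.18). COL4A6 had 80.4 CPM in SW780 shSCD1 and 67.9 CPM in SW780 shNT (1.18-fold, 1.12 to 1.26). In UMUC3 the pair had opposite signs. There COL4A5 had 20.5 CPM in shSCD1 and 25.4 CPM in shNT (log2 ratio −0.30), and COL4A6 had 8.76 CPM in shSCD1 and 5.61 CPM in shNT (0.56). Per kilobase COL4A5 stood at 1.83 times COL4A6 in UMUC3 shSCD1 (1.59 to 2.11) and 3.54 times in UMUC3 shNT (2.92 to 4.32).

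**Figure D3:**
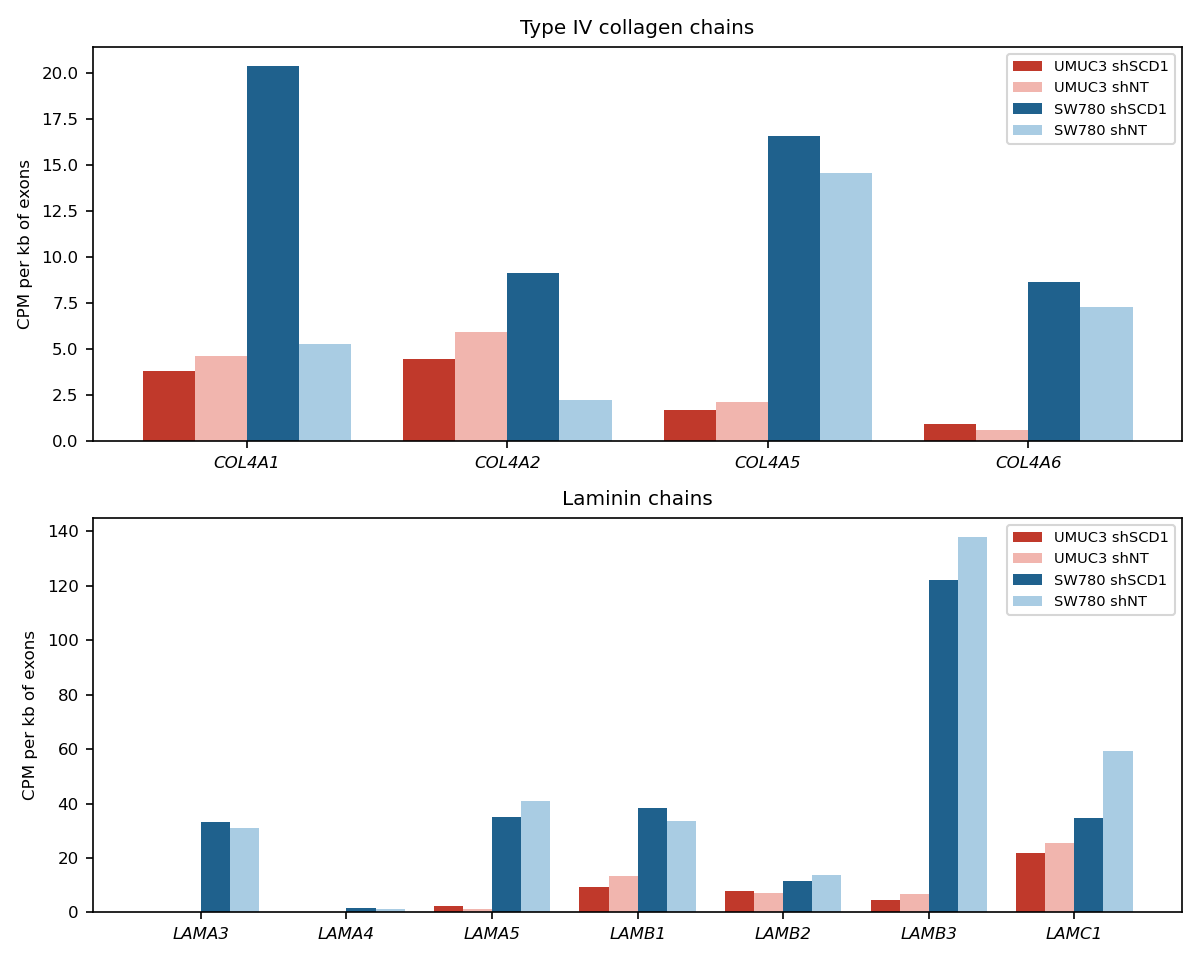
Level of type IV collagen chains (top) and laminin chains (bottom) as CPM per kilobase of GENCODE 29 exons in the 4 libraries; bars start at 0, 1 library each, and LAMA4 was not analysed here in UMUC3. In SW780 COL4A1 stands at 20.4 in shSCD1 and 5.29 in shNT, and LAMB3 is the tallest laminin bar in both SW780 libraries.

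Of the other network and microfibril collagens none passed the size rule in either line. Over all genes 2.47% were higher and 2.18% lower in UMUC3, and 1.48% higher and 1.06% lower in SW780. COL6A1 and COL6A2, chains of the beaded filaments of type VI collagen, neighbour each other on chromosome 21 and had the same sign in each line. COL6A2 had 19.4 CPM in shSCD1 and 32.3 CPM in shNT of UMUC3 (log2 ratio −0.71), and 13.8 CPM in shSCD1 and 8.62 CPM in shNT of SW780 (0.62). COL6A1 had log2 ratios of −0.60 and 0.26 in UMUC3 and SW780. The third chain, COL6A3, had 4 reads in shSCD1 and 12 in shNT of UMUC3 and 0 reads in both SW780 libraries. COL7A1, which forms the anchoring fibrils under stratified epithelia, stood at 290.1 CPM in shSCD1 and 309 CPM in shNT of SW780 (0.94-fold, 0.912 to 0.968), and at 1.6 CPM in shSCD1 and 0.789 CPM in shNT of UMUC3. COL8A1 had at most 7 reads in any library.

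Among the fibril-associated and transmembrane collagens, COL13A1 and COL17A1 were lower in UMUC3. Both encode collagens that span the plasma membrane, and the type XVII chain belongs to the hemidesmosomes that hold epithelial cells to the basement membrane. COL13A1 (chromosome 10, 69801867 to 69964275) had 1.04 CPM (34 reads) in UMUC3 shSCD1 and 6.35 CPM (145 reads) in UMUC3 shNT, 6.08-fold lower (4.16 to 9.12), and 0 reads in both SW780 libraries. COL17A1 (chromosome 10, 104031286 to 104085957) had 3.78 CPM in UMUC3 shSCD1 and 12.4 CPM in UMUC3 shNT, 3.29-fold lower (2.66 to 4.1). In SW780, where COL17A1 stood far above UMUC3, it had 151 CPM in shSCD1 and 185 CPM in shNT (log2 ratio −0.29). With 5 CPM added in place of 1, neither gene passed the size rule in UMUC3 any longer.

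COL12A1, which decorates fibrils, was among the strongest collagens of SW780 and close to level there, at 421 CPM in shSCD1 and 382 CPM in shNT (log2 ratio 0.14). In UMUC3 it had 30.9 CPM in shSCD1 and 38 CPM in shNT (−0.29). COL18A1, the source of endostatin, had 12.9 CPM in shSCD1 and 16.1 CPM in shNT of UMUC3, and 3.01 CPM in shSCD1 and 2.35 CPM in shNT of SW780. In COL18A1 16.4% of exonic bases lie in exons of a gene on the other strand, and whether strand was used in counting is not given. COL16A1 had 4 reads in shSCD1 and 23 in shNT of UMUC3, 8.2-fold lower with a wide interval (2.8 to 32.6), and passed the size rule with 0.1 CPM added and by the log2 fold change and the GFOLD value of the authors' deposited table, but not with 1 CPM added.

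Of the 7 laminin chains among the 46 genes, 0 passed the size rule in either line. Over all genes 2.47% were higher and 2.18% lower in UMUC3, and 1.48% higher and 1.06% lower in SW780, so 0 of so few is near those shares. Laminins are trimers of an alpha, a beta and a gamma chain. In SW780 the gamma chain gene LAMC1 had the lowest ratio, with 292 CPM in shSCD1 and 499 CPM in shNT, 1.71-fold lower (1.66 to 1.75; log2 ratio −0.77). The beta chain LAMB1 had 311 CPM in SW780 shSCD1 and 273 CPM in SW780 shNT (0.19), and the alpha chain LAMA5 499 CPM in shSCD1 and 583 CPM in shNT (−0.22). Per kilobase of exons, LAMB1 was 1.1 times LAMC1 in SW780 shSCD1 (1.07 to 1.13) and 0.565 times in SW780 shNT (0.551 to 0.58). The partner chains of LAMC1 thus kept their levels more closely than LAMC1 itself.

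In UMUC3, LAMA5 had the highest log2 ratio with 1 CPM added, 0.86, among those of the 46 genes with at least 1 CPM. It had 32.7 CPM in shSCD1 and 17.5 CPM in shNT (1.87-fold, 1.66 to 2.1). The much weaker COL7A1 had a larger plain fold there, 2.03 (1.17 to 3.68). LAMB1 had 77.5 CPM in UMUC3 shSCD1 and 108 CPM in UMUC3 shNT (−0.47), LAMC1 182 CPM in shSCD1 and 213 CPM in shNT (−0.23), and LAMB2 52.9 CPM in shSCD1 and 48.1 CPM in shNT (0.14). Among the laminin chains of the 46 genes, LAMA5 was therefore the only one with a log2 ratio beyond 0.5 in size in UMUC3.

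LAMA3 and LAMB3, an alpha and a beta chain of epithelial laminin, stood much higher in SW780 than in UMUC3. LAMA3 had 487 CPM in shSCD1 and 454 CPM in shNT of SW780, but 14 and 12 reads in shSCD1 and shNT of UMUC3. LAMB3 had 571 CPM in shSCD1 and 646 CPM in shNT of SW780, and 21.8 CPM in shSCD1 and 31.2 CPM in shNT of UMUC3. Their log2 ratios in SW780 were 0.10 for LAMA3 and −0.18 for LAMB3. In UMUC3 LAMA3 lay under the filter and LAMB3 had a log2 ratio of −0.49. LAMA4 had 20.4 CPM in shSCD1 and 15.4 CPM in shNT of SW780 (0.39), and LAMB2 78.1 CPM in shSCD1 and 95.3 CPM in shNT (−0.28).

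Perlecan, encoded by HSPG2, is the heparan sulfate proteoglycan that links laminin and type IV collagen. It had 73.3 CPM in UMUC3 shSCD1 and 121 CPM in UMUC3 shNT (log2 ratio −0.72), and 345 CPM in SW780 shSCD1 and 267 CPM in SW780 shNT (0.37), so its sign differed between the lines like those of COL4A1 and COL4A2. In HSPG2 11.7% of exonic bases lie in exons of LDLRAD2 on the other strand. Agrin, encoded by AGRN, is another basement membrane proteoglycan and was above 0 in both lines, with 59.4 CPM in shSCD1 and 52.3 CPM in shNT of UMUC3 (0.18), and 682 CPM in shSCD1 and 535 CPM in shNT of SW780 (0.35). NID1, the linker nidogen, had 233 CPM in shSCD1 and 223 CPM in shNT of SW780 (0.06) and 3.23 CPM in shSCD1 and 2.72 CPM in shNT of UMUC3 (0.19). NID2 had 28 reads in shSCD1 and 4 in shNT of UMUC3, under 1 CPM in both, and RTRAF on the other strand covers 30% of its exonic bases.

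Of the 5 matricellular genes of the main list, 4 were lower by the size rule in UMUC3, against 2.18% of all genes. In SW780 2 were lower, against 1.06% of all genes, and 1 higher, against 1.48%. Other matricellular genes, CCN1 and CCN2 among them, stand in another list, so these counts depend on the listing. TGFBI, a TGF-beta induced adhesion protein that binds collagen and integrins (chromosome 5, 136028895 to 136063818), was the strongest of the matrix genes per kilobase of exons in UMUC3 shNT, at 79.7 CPM per kb. It had 252 CPM in UMUC3 shSCD1 and 623 CPM in UMUC3 shNT, and 49.6 CPM in SW780 shSCD1 and 165 CPM in SW780 shNT. That was 2.47-fold (2.4 to 2.54) and 3.33-fold lower (3.14 to 3.55) in UMUC3 and SW780. TNC, which encodes the adhesion-modulating glycoprotein tenascin C (chromosome 9, 115019578 to 115118257), had 28.4 CPM in UMUC3 shSCD1 and 78.8 CPM in UMUC3 shNT, and 3.29 CPM (84 reads) in SW780 shSCD1 and 10.4 CPM (355 reads) in SW780 shNT. In UMUC3 this was 2.78-fold lower (2.56 to 3.01), and in SW780 3.17-fold lower (2.49 to 4.07). Both genes were thus lower in each line although their levels differed several-fold between lines; with 5 CPM added, TNC no longer passed the size rule in SW780.

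SPARC, a collagen-binding glycoprotein (chromosome 5, 151661096 to 151687165), was read in UMUC3 alone. It had 99.5 CPM in shSCD1 and 232 CPM in shNT there, 2.33-fold lower (2.23 to 2.44), and 0 reads in both SW780 libraries, which allows up to 0.117 CPM in shSCD1 and 0.088 CPM in shNT. In SPARC 7.89% of exonic bases lie in exons of a gene on the other strand.

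THBS1 was alone among the 31 genes measured in both lines in passing the size rule in opposite directions, as 17 of 11152 genes did (0.152%). It encodes thrombospondin 1, which activates latent TGF-beta and restrains blood vessel growth, and lies on chromosome 15 from 39581079 to 39599466. In UMUC3 it had 1.14 CPM (37 reads) in shSCD1 and 14 CPM (319 reads) in shNT, 12.3-fold lower (8.73 to 17.8). In SW780 it had 1519 CPM (38800 reads) in shSCD1 and 519 CPM (17694 reads) in shNT, 2.93-fold higher (2.87 to 2.98). Per kilobase of exons it was the strongest of the matrix genes in SW780 shSCD1 (166 CPM per kb) and the third strongest in SW780 shNT (56.7). In THBS1 7.58% of exonic bases lie in exons of genes on the other strand. Its relative THBS2 was weak, with 2.92 CPM in shSCD1 and 1.62 CPM in shNT of UMUC3 (log2 ratio 0.58) and 17 and 20 reads in shSCD1 and shNT of SW780.

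Fibrillins form the microfibrils that carry elastin, and lumican regulates fibril spacing. FBN1 had 14 and 16 reads in shSCD1 and shNT of UMUC3, and 2.5 CPM in shSCD1 and 1.97 CPM in shNT of SW780. FBN2 had 0 reads in both UMUC3 libraries and 9 and 4 reads in shSCD1 and shNT of SW780. LUM was read only in SW780, at 40 CPM in shSCD1 and 35.9 CPM in shNT (log2 ratio 0.15), and had 0 reads in both UMUC3 libraries.

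LOXL2 was the leading lysyl oxidase of both lines and had opposite signs in them. Lysyl oxidases start the cross-linking of collagen and elastin, and LOXL2 acts on type IV collagen among others. LOXL2 lies on chromosome 8 from 23297189 to 23425328, with 5.22% of its exonic bases in exons of other genes. It had 164 CPM in UMUC3 shSCD1 and 311 CPM in UMUC3 shNT, 1.89-fold lower (1.82 to 1.96; log2 ratio −0.91), and 165 CPM in SW780 shSCD1 and 79.6 CPM in SW780 shNT, 2.07-fold higher (1.97 to 2.17; 1.04). LOXL2 thus just missed the size rule in UMUC3 and just passed it in SW780. LOX had 6.67 CPM in shSCD1 and 5.74 CPM in shNT of UMUC3 and 1.96 CPM in shSCD1 and 1.44 CPM in shNT of SW780, with counting intervals that hold a fold of 1 in both lines. LOXL1 had at most 9 reads in any library, and LOXL4 8 and 19 reads in shSCD1 and shNT of SW780.

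The 4 hydroxylases had ratios below 0 in UMUC3, against 45.7% of all genes, and above 0 in SW780, against 48.5%. None passed the size rule, against 2.47% of all genes higher and 2.18% lower in UMUC3, and 1.48% and 1.06% in SW780. PLOD2, the lysyl hydroxylase of collagen telopeptides, had 281 CPM in shSCD1 and 522 CPM in shNT of UMUC3, 1.86-fold lower (1.81 to 1.91; log2 ratio −0.89), and 88.5 CPM in shSCD1 and 75.8 CPM in shNT of SW780 (0.22). PLOD1, which hydroxylates lysines of the helix, had 60.2 CPM in shSCD1 and 86.7 CPM in shNT of UMUC3 (−0.52) and 81.8 CPM in shSCD1 and 64.4 CPM in shNT of SW780 (0.34). P4HA1 and P4HA2 encode the catalytic subunits of prolyl hydroxylase, which makes the triple helix stable. P4HA1 had 93.5 CPM in shSCD1 and 122 CPM in shNT of UMUC3 (−0.38) and 41.6 CPM in shSCD1 and 39.3 CPM in shNT of SW780 (0.08). P4HA2 had 27.3 CPM in shSCD1 and 35.7 CPM in shNT of UMUC3 (−0.38) and 76.5 CPM in shSCD1 and 50.5 CPM in shNT of SW780 (0.59). The counting interval of P4HA1 in SW780 holds a fold of 1.

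Of the other genes of collagen folding and processing, 23 had at least 1 CPM in UMUC3 and 18 in SW780. None passed the size rule in either line, with medians of −0.11 in UMUC3 and 0.17 in SW780. Over all genes 2.47% were higher and 2.18% lower in UMUC3, and 1.48% higher and 1.06% lower in SW780. With lists this short, 0 is near those shares. SERPINH1, the collagen chaperone, had 161 CPM in shSCD1 and 91 CPM in shNT of SW780 (log2 ratio 0.81) and was not analysed here in UMUC3. Of other collagen chains, 3 in UMUC3 and 6 in SW780 had at least 1 CPM and 0 passed the rule, which is likewise near the shares over all genes.

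Of further laminin and netrin genes, 5 had at least 1 CPM in UMUC3 and 5 in SW780. By the size rule 1 was higher and 2 were lower in UMUC3, and 0 passed in SW780. Over all genes 2.47% were higher and 2.18% lower in UMUC3, and 1.48% higher and 1.06% lower in SW780. With so few genes, 0 in SW780 is near those shares. In UMUC3 LAMA1, an embryonic alpha chain, had 65.7 CPM in shSCD1 and 19.2 CPM in shNT, 3.42-fold higher (3.09 to 3.8). LAMA2, the alpha chain of muscle, had 30 and 95 reads in shSCD1 and shNT, 4.52-fold lower (2.97 to 7.05), and NTN4, a netrin that binds laminin, was 3.42-fold lower (2.64 to 4.45). With LAMA5, the alpha chain genes LAMA1 and LAMA5 of UMUC3 stood above 0 and LAMA2 below.

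Of the other matrix glycoproteins and proteoglycans, 1 of 19 was higher and 3 lower in UMUC3, and 2 of 28 were higher and 1 lower in SW780. Over all genes 2.47% were higher and 2.18% lower in UMUC3, and 1.48% higher and 1.06% lower in SW780. In UMUC3, SMOC1, a relative of SPARC, was 2.61-fold higher (2.44 to 2.79). MFAP5, a microfibril protein, was 15.3-fold lower (9.64 to 25.5) and MATN2, a matrilin, 4.18-fold lower (3.35 to 5.26). CCN1, a matricellular protein, had 521 CPM in shSCD1 and 1575 CPM in shNT. In SW780, FN1, which encodes fibronectin, had 734 CPM in shSCD1 and 279.9 CPM in shNT and CCN2, a matricellular growth factor regulator, 41.3 CPM in shSCD1 and 16 CPM in shNT. SPP1, which encodes osteopontin, had 6.03 CPM in shSCD1 and 19.9 CPM in shNT of SW780, 3.3-fold lower (2.77 to 3.96). In SW780 FAP and TAGLN, listed as fibroblast and smooth muscle markers, were also higher, 3.95-fold (3.47 to 4.5) and 2.79-fold (2.61 to 2.97). The other 2 fibroblast markers with at least 1 CPM in SW780 were below 0. These were POSTN (10 reads in shSCD1 and 50 in shNT) and S100A4 (log2 ratio −0.54). In UMUC3 the listed fibroblast markers TCF21 and MFAP5 were lower, TCF21 8.74-fold (7.07 to 10.9). The part of these markers, and of the lower epithelial marker sums in shSCD1 of both lines, in the matrix values was not tested.

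Set side by side, the lines shared fewer signs than they opposed. The 2 comparisons have separate shNT libraries. Of 31 matrix genes with at least 1 CPM in both lines, 17 were below 0 in UMUC3 and above 0 in SW780, against 22.5% of 11152 genes, and 3 the other way round, against 26%. A further 7 were below 0 in both, against 25.6%, and 4 above 0 in both, against 26%. The 17 took in COL4A1, COL4A2, COL6A1, COL6A2, HSPG2, LOXL2, THBS1 and the 4 hydroxylases. Many of these ratios are small, and whether a gene's ratio differs between the lines was not tested, because a model with that term leaves no replicates.

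**Figure D4:**
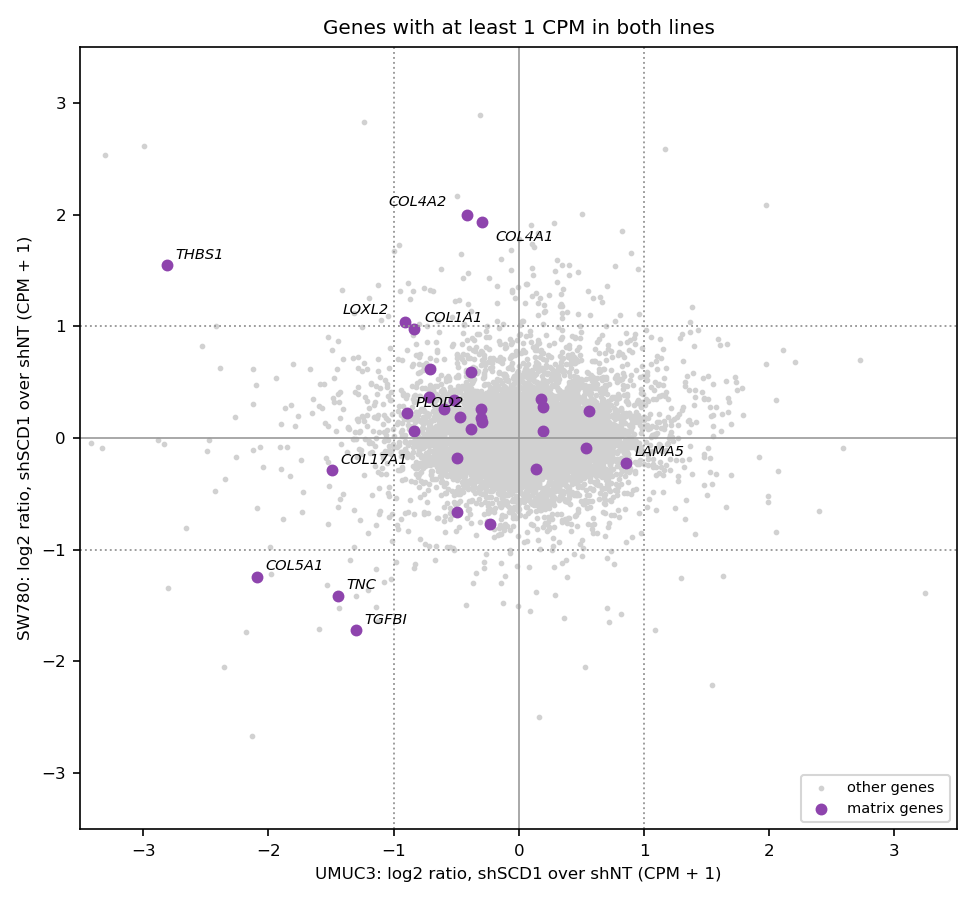
Log2 ratio of shSCD1 over shNT (CPM plus 1) in UMUC3 (horizontal) against SW780 (vertical) for genes with at least 1 CPM in both lines; purple points are the 31 matrix genes, grey points the other genes within the axes, and dotted lines mark the size rule. TNC, TGFBI and COL5A1 lie past it at the lower left and THBS1 at the upper left.

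By the size rule 3 of the 31 were lower in both lines, against 0.188% of all genes, and 0 were higher in both, against 0.0359%. The 3 were COL5A1, TGFBI and TNC. With cell line as a block and the lines as the only repeats, edgeR's quasi-likelihood test on the recovered reads called 0 of 13554 genes at an adjusted p of 0.05 (0% called; 418 genes had an unadjusted p under 0.05), while DESeq2 called 28 of 13469 (0.208%). TGFBI had a log2 fold change of −1.53 and was lower in 2 of 2 lines, with a Benjamini-Hochberg adjusted p of 0.986 in edgeR and 8.29e-10 in DESeq2. TNC had −1.57 with an adjusted p of 0.986 in edgeR and 6.23e-05 in DESeq2, and COL5A1 −1.79 in edgeR with an adjusted p of 0.986, against 0.0124 in DESeq2. The tools thus differ on these genes, and no other matrix gene with an adjusted p had one under 0.05 in either tool. COL1A2, COL6A3, COL8A1, LAMA4, FBN2, LOXL1 and LOXL4 had no adjusted p in either tool, and NID2 none in edgeR. SCD itself had an adjusted p of 0.722 in edgeR and 7.43e-23 in DESeq2.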

How the data were processed

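Whole-transcriptome libraries were made with a TruSeq kit and sequenced on a NovaSeq instrument, per the labels' protocols. The submitters' processing notes name the build hg38. For the aligner, read counter, annotation release and strand setting, the sources used here give nothing. For each line the authors deposited 1 table. Its columns, per the file headers, are a GFOLD value (a log2 fold change shrunk for counting error, at a setting of 0.01), an empirical FDR (always 1, so left out), the log2 fold change, and a pair of columns with the heading RPKM. The deposited signal in those columns is a read count scaled to 1 total with no gene length in it. Each column is built from whole steps: 100% of values up to 20 reads, and 99.9% of all values above 0, lay within 0.1 of a step, so division gave back the reads. The design assumed recovered reads and was used as written.

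CPM uses the table total of each library. Gene names came from the tables or, for entries without one, from Ensembl identifiers (79.1% of UMUC3 and 97.3% of SW780 entries then had a name). Exon lengths, positions and exon overlap came from GENCODE 29. The exon length of a gene is the union of all its annotated exons, so ranks and ratios per kilobase between genes depend on the annotation. Count tests used edgeR 4.0.16 (filterByExpr, TMM, cell line as block) and DESeq2 1.42.0 in R 4.3.3 over genes in both tables; ratios used Python 3.11.15 with scipy 1.17.1. The computations were tested on simulated data. Since PCR copies are counted as reads, the intervals and floors describe counting error alone.

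All 46 genes are described. Of the other matrix lists, genes past the size rule are named, up to 8 per list and line, with SERPINH1 added after its values were seen. The genes and lists were chosen with earlier results of these data known. Alternatives were 2 other scalings, added counts of 0.1 and 5 CPM, a filter at 5 CPM or none, and the deposited log2 fold change and GFOLD value.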

Additional observations from a re-analysis of the deposited data

Results flagged for a closer look

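COL4A1, COL4A2, THBS1 and LOXL2 passed the size rule in at least 1 line and had the other sign in the other line, with counting intervals that exclude a fold of 1 in both. With 1 library per group the difference between lines was not tested. The log2 ratio of UMUC3 minus that of SW780 was −4.36 for THBS1. It was −2.41 for COL4A2 and −2.22 for COL4A1. For LOXL2 it was −1.95. COL1A1, short of the size rule in both lines with 1 CPM added, had −1.82.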

How the results depend on the processing

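All ratios of the 70 gene and line pairs with at least 1 CPM kept their sign under other scalings, other added counts, other filters and the deposited log2 fold change, where the gene was still included. Scaling by TMM or centring on the median of all genes changed no call. With 0.1 CPM added or the deposited log2 fold change, COL1A1 and COL16A1 were also lower in UMUC3 and COL1A1 also higher in SW780 (COL16A1 also by the deposited GFOLD value); with 5 CPM added COL13A1 and COL17A1 (UMUC3) and TNC (SW780) were not called. The count lower in UMUC3 ranged from 5 to 9 and that higher in SW780 from 3 to 5, the 3 by the deposited GFOLD value, which left out LOXL2. The median log2 ratio of SW780 (0.20) was 0.14 with 5 CPM added and 0.12 with no filter on low values. The count test over both lines called 28 genes with DESeq2 and 1 with no filter on low counts, against 0; the cause was not tested. No paired analysis was possible beyond the cell line block because each group has 1 library and the labels carry no replicate number; without the cell line block edgeR called 0 genes (11 at an unadjusted p under 0.05). Depth limits weak genes: those under the floor of 3 reads, such as COL1A2, cannot be compared.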

Other observations

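Among receptors of collagen and laminin outside the integrins, 1 gene passed the size rule in each line. In UMUC3, DDR2, a tyrosine kinase receptor for fibrillar collagen, had 76.1 CPM in shSCD1 and 16.1 CPM in shNT, 4.72-fold higher (95% counting interval 4.23 to 5.28), as 1 of 13 such receptors past the rule there, against 2.47% of all genes that were higher. In SW780, BCAM, a receptor for the LAMA5 chain, had 87.5 CPM in shSCD1 and 207 CPM in shNT, 2.37-fold lower (2.26 to 2.48), as 1 of 14, against 1.06% of all genes that were lower. The other receptors with at least 1 CPM had log2 ratios of less than 1 in size in both lines.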
